A study of Homo sapiens with 6 samples.

Results

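The genes described here are 10 members of the NRF2 antioxidant pathway, out of 60656 genes in the count table of parental ZR-75-1 cells. They were chosen by symbol, matched through the Ensembl identifier of each row, and all 10 were found: NFE2L2, KEAP1, GCLC, GCLM, HMOX1, NQO1, TXNRD1, SRXN1, GPX4 and TXN. ZR-75-1 is an established oestrogen receptor-positive human breast cancer line, here without any engineered change. Cells were grown for 4 days with DMSO, the drug's solvent, or with 500 nM abemaciclib, an inhibitor of the kinases CDK4 and CDK6, in the same medium, and each group had 3 RNA-seq libraries. The study compared these groups to learn how transcription changes when the inhibitor holds the retinoblastoma protein in its active form. Of the 10 genes, 9 had enough counts to be tested and SRXN1 had none in any library.

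NRF2, encoded by NFE2L2, is a transcription factor that switches on genes against oxidative and electrophilic stress. In unstressed cells KEAP1 binds NRF2 and hands it to a ubiquitin ligase, so NRF2 protein is short-lived, and modification of cysteines in KEAP1 lets NRF2 accumulate. NRF2 then pairs with a small MAF protein on the antioxidant response element of its targets, which make glutathione, reduce quinones and keep thioredoxin reduced. Because this control acts on protein, the mRNA level of NFE2L2 is not a measure of NRF2 activity.

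Promoter sequences are shown for the members whose RefSeq promoter held the core of the antioxidant response element, and for NQO1, which fell with abemaciclib. The core searched was TGACNNNGC, on both strands, in windows from 250 bases before to 50 bases after each annotated start on GRCh38.p14. It was present in 4687 of 35116 promoters (13.3%) and in 4 of the 14 promoters of 9 members, namely those of GCLM, KEAP1 and TXNRD1, while HMOX1 had no entry. None of the 6 matches also spelled TGACTCA, the AP-1 site that can overlap this core. Each stretch runs 5′ to 3′ on the gene's strand from 120 bases before the start, with 10 bases after it, and capitals mark a match to the core on either strand.
GCLM, chr1:93909421-93909550, minus strand: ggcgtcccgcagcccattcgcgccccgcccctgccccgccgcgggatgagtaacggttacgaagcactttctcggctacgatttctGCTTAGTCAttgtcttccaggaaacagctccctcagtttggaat
KEAP1, chr19:10502762-10502891, minus strand: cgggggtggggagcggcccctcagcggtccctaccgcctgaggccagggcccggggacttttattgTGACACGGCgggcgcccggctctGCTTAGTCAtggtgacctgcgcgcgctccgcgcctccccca
TXNRD1, upstream start, chr12:104215659-104215788, plus strand: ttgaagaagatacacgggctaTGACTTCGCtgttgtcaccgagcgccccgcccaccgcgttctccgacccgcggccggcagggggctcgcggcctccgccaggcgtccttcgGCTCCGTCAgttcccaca
TXNRD1, downstream start, chr12:104286912-104287041, plus strand: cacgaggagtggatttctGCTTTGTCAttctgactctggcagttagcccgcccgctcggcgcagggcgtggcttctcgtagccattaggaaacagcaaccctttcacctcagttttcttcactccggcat
NQO1, chr16:69726551-69726680, minus strand: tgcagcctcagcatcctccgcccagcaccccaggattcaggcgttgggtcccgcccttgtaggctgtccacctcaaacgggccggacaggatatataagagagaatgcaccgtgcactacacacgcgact
GCLM and one of the KEAP1 promoters carried the same match, TGACTAAGC read on the opposite strand, 34 and 31 bases before the start. A match is a description of letters and not evidence that NRF2 bound there, and the window of NQO1 holds no match at this length. Sequence outside the windows was not searched, so an element further from a start would be missed.

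The 3′ mRNA libraries held between 3317860 and 4013156 counts, and 3 counts, the limit that a count of 0 allows, stood for 0.740 to 0.909 CPM (a count scaled to a common library size, with TMM factors), a limit that covers counting error only. Abemaciclib replicate 3 stood apart: the chi-square per degree of freedom between libraries was 6.90 and 7.29 for its pairs, against 2.84 to 4.20 for the other pairs within a group, and mitochondrial transcripts made up 18.3% of its counts against 15.6% to 16.6% elsewhere. All 8 luminal markers, such as ESR1, GATA3 and KRT19, were above the test's filter, and of 9 markers of leukocytes, endothelium, fibroblasts and basal cells, 7 were at 0 in every library. CD68 was at or below 0.297 CPM, and COL1A1 lay between 10.1 and 15.8 CPM in both groups. The luminal markers summed to 7478 to 7935 CPM with DMSO and 8520 to 9512 CPM with abemaciclib, and their part in the results was not tested. In bulk RNA a change in the make-up of the cells and a change in RNA per cell cannot be told apart.

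Abemaciclib lowered the mRNA of NQO1 and TXNRD1, the quinone reductase and the cytosolic thioredoxin reductase, while no member rose. The other 7 members tested, NFE2L2 and KEAP1 among them, did not pass the threshold. Among the 9 members tested, 2 were lower and 0 higher past the threshold of 0.05 on edgeR's adjusted P (2 lower and 0 higher with DESeq2). By edgeR's unadjusted P at 0.05, 3 were lower and 0 higher, and the share of all genes at that cutoff was not taken. Over all 10863 genes tested, 25.7% were called, 12.5% higher and 13.3% lower, so 2 of 9 was near the background and says nothing particular about these genes. The median log2 fold change of the 9 was −0.12, against −0.0018 for all genes tested, and it lay between −0.23 and −0.12 when each library was left out in turn.

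**Figure D1:**
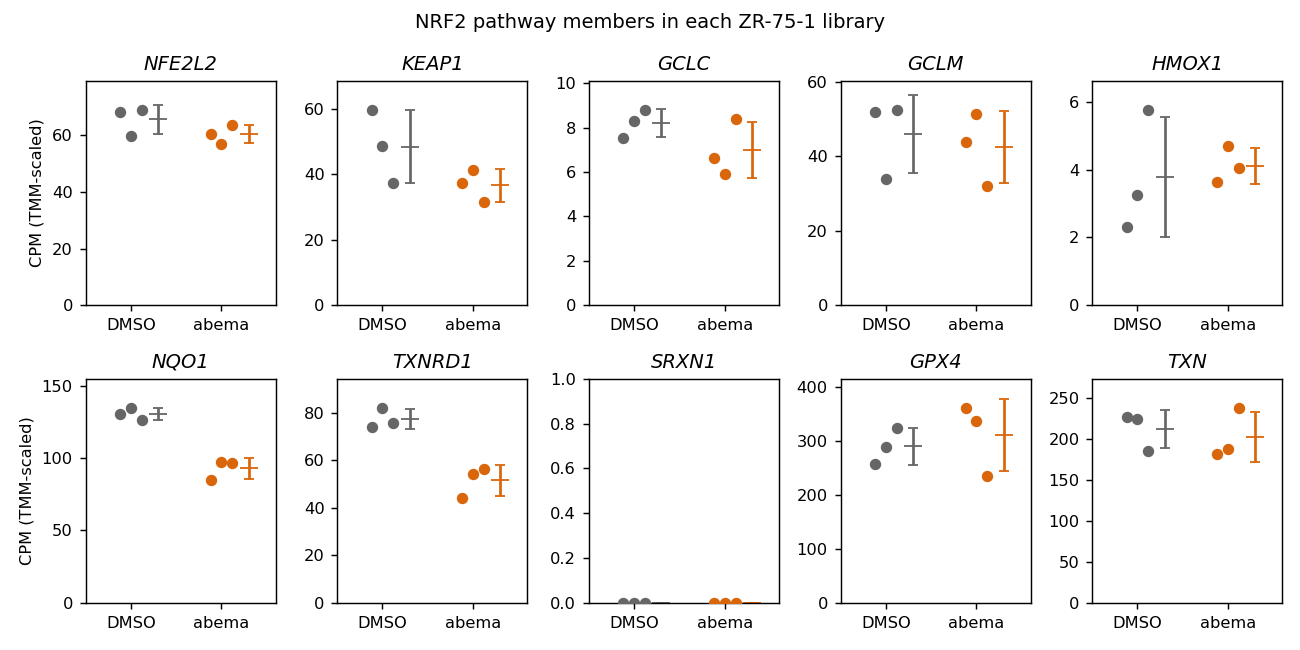
TMM-scaled CPM of each member in the 3 DMSO (grey) and 3 abemaciclib (orange) ZR-75-1 libraries, each axis starting at 0; dots are libraries and the bars beside them the mean and SD. NQO1 and TXNRD1 are the members whose groups do not overlap, and SRXN1 is at 0 throughout.

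NFE2L2, on chromosome 2 of GRCh38 from 177218667 to 177392756, had 68.2, 59.7 and 68.8 CPM with DMSO and 60.5, 57.0 and 63.5 CPM with abemaciclib. The groups overlapped, since the lowest DMSO library lay within the abemaciclib range. The log2 fold change was −0.12 (95% interval −0.40 to 0.16, adjusted P = 0.578), so a fall to less than 0.758 of the DMSO level or a rise beyond 1.12-fold lay outside the interval. KEAP1, the adaptor that marks NRF2 for degradation, lies on chromosome 19 from 10486125 to 10503558. It had 59.5, 48.4 and 37.3 CPM with DMSO and 37.2, 41.2 and 31.3 CPM with abemaciclib. The DMSO libraries spread widely, and DMSO replicate 3 lay level with abemaciclib replicate 1. Its log2 fold change was −0.40 (95% interval −0.77 to −0.04), with an unadjusted P of 0.032 and an adjusted P of 0.0989 from edgeR's test over all genes. Without DMSO replicate 3 the log2 fold change was −0.56 and passed the threshold (adjusted P = 0.0299), and over all 12 alternatives the adjusted P ranged from 0.0299 to 0.467.

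The pair of genes for glutamate–cysteine ligase, the rate-limiting enzyme of glutathione synthesis, did not pass the threshold. GCLC, the catalytic subunit, on chromosome 6 from 53497341 to 53616970, had 7.54, 8.32 and 8.78 CPM with DMSO and 6.66, 5.92 and 8.38 CPM with abemaciclib. With only 22 to 31 counts per library, its log2 fold change of −0.23 carried a 95% interval from −0.97 to 0.50 (adjusted P = 0.692), and a change of up to 0.512-fold or 1.41-fold could not be told from none at this depth. GCLM, the modifier subunit, on chromosome 1 from 93885199 to 93909456, had 51.9, 33.9 and 52.4 CPM with DMSO and 43.9, 51.3 and 32.2 CPM with abemaciclib. Each group held 1 low library, DMSO replicate 2 and abemaciclib replicate 3, and the ranges overlapped almost wholly. The log2 fold change of GCLM was −0.12 (95% interval −0.50 to 0.27, adjusted P = 0.709), and it turned to 0.052 without abemaciclib replicate 3.

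NQO1, which reduces quinones by transferring a pair of electrons at once, lies on chromosome 16 from 69706996 to 69726668. It had 130.5, 134.6 and 126.0 CPM with DMSO and 84.7, 97.2 and 96.7 CPM with abemaciclib. Every abemaciclib library lay below every DMSO library, as in 20.1% of all genes tested. Its mean went down from 130.4 ± 4.28 CPM to 92.9 ± 7.08 CPM (means with the SD of 3 libraries, as below), or by 0.49 on the log2 scale with a standard error of 0.11 (edgeR, adjusted P = 0.00191). The call held in all 12 alternatives, with a log2 fold change between −0.52 and −0.42 when each library was left out. A gene on the opposite strand overlaps the last kilobase of NQO1, but not its last 300 transcribed bases.

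TXNRD1, the selenoprotein that passes electrons from NADPH to thioredoxin, lies on chromosome 12 from 104215779 to 104350307. It had 74.0, 82.0 and 75.7 CPM with DMSO and 44.2, 54.3 and 56.5 CPM with abemaciclib. The highest abemaciclib library was under the lowest DMSO library, and 2 of the 9 members had groups that do not overlap in either direction, against 39.1% of all genes tested. TXNRD1 dropped on average from 77.2 ± 4.22 CPM to 51.6 ± 6.56 CPM, to 0.670 of the DMSO level (log2 fold change −0.58, standard error 0.14, adjusted P = 0.00263). The fall was called in all 12 alternatives, with log2 fold changes from −0.64 to −0.48 over the fits without 1 library. Counts were per gene, so use of the upstream and the downstream start shown above could not be separated.

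TXN, thioredoxin itself and the substrate of TXNRD1, lies on chromosome 9 from 110243810 to 110256507. It had 227.1, 223.7 and 185.1 CPM with DMSO and 181.5, 187.8 and 237.5 CPM with abemaciclib. The groups overlapped, with the highest value of all in abemaciclib replicate 3. The log2 fold change was −0.07 (95% interval −0.30 to 0.17, adjusted P = 0.724), so the interval excluded a fall as large as the fitted value of TXNRD1, although the difference between these genes was not tested. The 7 annotated TXN pseudogenes held 16 counts over all 6 libraries, against 4387 for TXN.

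HMOX1, the haem oxygenase that opens the haem ring and a gene strongly induced by oxidative stress in many cells, lies on chromosome 22 from 35380361 to 35394214. It was close to the detection limit, with 2.32, 3.27 and 5.75 CPM with DMSO and 3.63, 4.69 and 4.05 CPM with abemaciclib, from 8 to 19 counts per library. The abemaciclib libraries lay inside the DMSO range. The log2 fold change was 0.13 with a wide 95% interval from −0.88 to 1.14 (adjusted P = 0.881), and it was −0.13 without DMSO replicate 1.

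GPX4, the selenoprotein that reduces lipid hydroperoxides with glutathione and guards cells against ferroptosis, lies on chromosome 19 from 1103982 to 1106791. It had 257.0, 289.3 and 324.7 CPM with DMSO and 361.5, 337.5 and 234.5 CPM with abemaciclib. Abemaciclib replicates 1 and 2 lay above every DMSO library, and abemaciclib replicate 3 lay below all of them. The log2 fold change was 0.10 (95% interval −0.15 to 0.35, adjusted P = 0.612). Without abemaciclib replicate 3, the library that stood apart, it was 0.27 and passed the threshold (adjusted P = 0.0237), and without abemaciclib replicate 1 it was −0.018. Over all 12 alternatives the adjusted P of GPX4 ranged from 0.0237 to 0.959, and the part that the state of abemaciclib replicate 3 has in this was not tested.

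SRXN1, sulfiredoxin, repairs overoxidized peroxiredoxins and lies on chromosome 20 from 646615 to 653200 on the minus strand. It had 0 counts in all 6 libraries. A read-through gene on the same strand covers 96.3% of the last 300 transcribed bases of SRXN1, and that gene also had 0 counts. Of 747 protein-coding genes whose last 300 bases are fully covered by another gene on the same strand, 605 (81.0%) had 0 counts in all 6 libraries, against 4940 of 16647 (29.7%) with no other gene there. Among the genes listed here, 8 had at least 90% of that stretch covered on the same strand, GPX1 and TXNDC5 among them, and each held 11 or fewer counts in all. These overlaps were read from a later GENCODE release than the one used for counting, and whether the overlap accounts for the 0 of SRXN1 was not tested. No response of SRXN1 to abemaciclib could be read from these counts. Of 741 genes fully covered by a gene on the opposite strand, only 15.9% had 0 counts, with a median of 270 counts over the 6 libraries.

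**Figure D2:**
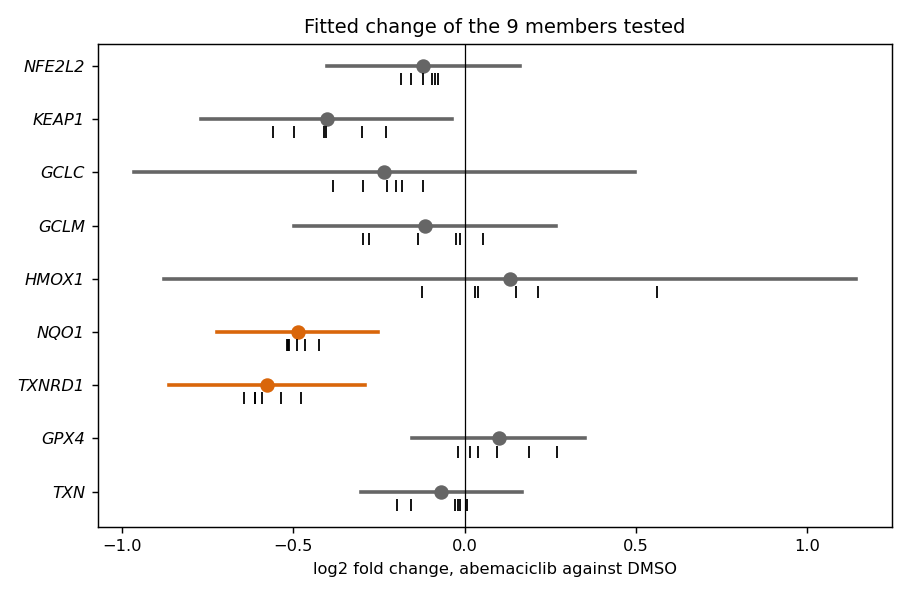
Fitted log2 fold change (abemaciclib against DMSO) of the 9 members tested, with 95% intervals as bars; orange marks an adjusted P under 0.05, and the ticks under each bar are the fits that each left out 1 of the 6 libraries. The intervals of NQO1 and TXNRD1 lie wholly below 0, as does that of KEAP1, which did not pass the adjusted threshold, and those of HMOX1 and GCLC are the widest.

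The rest of the pathway was read through 7 lists written from general knowledge, and their called shares are read against the 12.5% higher and 13.3% lower among all genes tested, whose median was −0.0018. Among partners and regulators of NRF2, 13 of 14 genes were tested, with 1 higher (7.69%) and 2 lower (15.4%) and a median log2 fold change of −0.017. RBX1, the RING subunit of the ligase that KEAP1 recruits, dropped from 116.0 ± 3.33 to 81.8 ± 11.3 CPM (log2 fold change −0.51, adjusted P = 0.00272), and CUL3, the scaffold of that ligase, showed a log2 change of −0.21 (adjusted P = 0.409). MAFG, a small MAF partner of NRF2, fell by 0.48 (adjusted P = 0.0133), a result that needed both DMSO replicate 1 (−0.45 without it) and abemaciclib replicate 1 (−0.40 without it). The small MAF gene MAFK had means of 169.9 CPM with DMSO and 168.5 CPM with abemaciclib (log2 fold change −0.011, adjusted P = 0.960). MAFF, the other one listed, showed a log2 change of −0.39 (adjusted P = 0.327). NFE2L1, which encodes the related factor NRF1, showed a log2 change of 0.39 (adjusted P = 0.0378) that did not pass with DESeq2 (adjusted P = 0.0795), with total counts as the scaling, with the replicate number as a block, or when DMSO replicates 1 (0.33) or 3 (0.37) or abemaciclib replicates 1 (0.29) or 2 (0.41) were left out. SQSTM1, an adaptor that can draw KEAP1 into autophagy, showed a log2 change of 0.05 (adjusted P = 0.791), and BACH1, a repressor at the same elements, one of −0.42 (adjusted P = 0.57). BACH1 was low, at 4.06 to 5.94 CPM with DMSO and 3.45 to 3.93 CPM with abemaciclib.

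Of 34 other NRF2 target genes, 21 were tested, with 4 higher and 4 lower (19.0% each, against 12.5% and 13.3% of all genes) and a median of 0.30. OSGIN1 had 6.67, 3.27 and 5.15 CPM with DMSO and 18.2, 14.1 and 15.7 CPM with abemaciclib (log2 fold change 1.65, adjusted P = 0.000351). FTL, the ferritin light chain, rose by 0.58 (adjusted P = 0.000351). Its 16 annotated pseudogenes, which could share its reads, held 24 counts over all 6 libraries, against 3788 for FTL. The heavy chain FTH1 showed a log2 change of 0.10 (adjusted P = 0.495). ME1, the cytosolic malic enzyme and a source of NADPH, rose by 0.61 (adjusted P = 0.0167), a call lost without DMSO replicate 1 (0.55), DMSO replicate 2 (0.61) or abemaciclib replicate 1 (0.55).
The falls were in PIR (log2 fold change −0.82, adjusted P = 0.0103), biliverdin reductase BLVRA (−0.51, adjusted P = 0.00389), transketolase TKT (−0.44, adjusted P = 0.00463) and the aldose reductase AKR1B1 (−1.42, adjusted P = 0.0314). PIR lost its call without DMSO replicate 1 (−0.74) or abemaciclib replicate 1 (−0.66), and TKT without DMSO replicate 3 (−0.32). AKR1B1 was low, at 1.97 to 11.6 CPM with overlapping groups, and was called in 5 of 11 alternatives. Leaving out DMSO replicates 1 (−0.98) or 2 (−1.49) or abemaciclib replicates 1 (−1.27) or 2 (−1.21) ended its call. Thus NQO1 and TXNRD1 fell, while the called genes in this list of other targets went both ways, 4 higher and 4 lower. The list does not hold every target of NRF2, so this split describes the list only.

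Of 34 genes of glutathione synthesis, recycling and transfer, 24 were tested, with 2 higher (8.33%) and 5 lower (20.8%, against 13.3% of all genes) and a median of −0.21. The cystine carrier SLC7A11 and CHAC1 had the lowest fitted values of the list. SLC7A11 had 27.6, 16.0 and 20.6 CPM with DMSO and 2.12, 0.493 and 2.43 CPM with abemaciclib (log2 fold change −3.68, adjusted P = 4.63e-08). The 0.493 CPM of abemaciclib replicate 2 lay below the 0.740 CPM that 3 counts stood for in that library, so the size of the fall is imprecise. SLC3A2, its partner chain, dropped by 0.99 (adjusted P = 1.81e-07). CHAC1, which cleaves glutathione inside the cell, went from a mean of 21.7 CPM to 1.22 CPM (log2 fold change −4.16, adjusted P = 3.05e-09). Both CHAC1 and SLC7A11 are targets of the ATF4 stress factor, but the part of ATF4 or of NRF2 in these falls was not tested. Each was left out of the fit that required at least 10 counts in every library. GSR, which returns oxidized glutathione to its reduced form, fell by 0.41 (adjusted P = 0.015), a call lost without DMSO replicate 2 (−0.40), DMSO replicate 3 (−0.39) or abemaciclib replicate 1 (−0.37). The transferase GSTO1 fell by 0.54 (adjusted P = 0.00536) and kept its call in all 12 alternatives. GSS, glutathione synthetase, which acts after the ligase of GCLC and GCLM, rose from 26.4 ± 3.88 to 39.8 ± 6.94 CPM (adjusted P = 0.0216), but not with DESeq2 (adjusted P = 0.0543) or without DMSO replicate 1 (log2 fold change 0.51), DMSO replicate 2 (0.54) or abemaciclib replicate 1 (0.44). GGT6, of the gamma-glutamyltransferase family, rose by 0.87 (adjusted P = 0.000538) under all 12 alternatives.

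Among the enzymes that remove peroxide and their relatives, PRDX1, PRDX5 and PRDX6 rose, while PRDX2, PRDX3 and PRDX4 were not called. The sestrins SESN1 and SESN2 fell, and SESN3 was not called. Of 24 listed genes 23 were matched and 18 tested, with 3 higher (16.7%, against 12.5% of all genes), 2 lower (11.1%, against 13.3%) and a median of 0.18. PRDX6, which uses glutathione to reduce phospholipid peroxides, had 163.6, 157.4 and 151.1 CPM with DMSO and 220.5, 219.6 and 231.8 CPM with abemaciclib (log2 fold change 0.51, adjusted P = 0.000329). PRDX5 rose by 0.35 (adjusted P = 0.0129), a call lost without DMSO replicate 1 (0.34), DMSO replicate 2 (0.32) or abemaciclib replicate 2 (0.31). PRDX1 showed a log2 change of 0.24 (adjusted P = 0.0423) that passed in 4 of 12 alternatives, and of the fits without 1 library only in that without abemaciclib replicate 3; in the others it was 0.22 to 0.26, and a gene on the opposite strand covers its 3′ end. The falls were in the sestrins, p53-responsive regulators of mTOR signalling rather than peroxidases. SESN2 fell by 0.58 (adjusted P = 0.000805), and SESN1, at 0.811 to 6.24 CPM, by 1.69 (adjusted P = 0.0219), which DESeq2 did not call, nor the fits that left out DMSO replicates 2 (−1.56) or 3 (−1.59) or abemaciclib replicates 2 (−1.73) or 3 (−1.36). SOD1 and CAT, the superoxide dismutase of the cytosol and catalase, had log2 fold changes of −0.02 and −0.16 and did not pass.

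In the thioredoxin system beyond TXN and TXNRD1, 9 of 12 genes were tested, with 1 higher (11.1%), 0 lower and a median of 0.14. By edgeR's unadjusted P at 0.05, 4 were higher and 0 lower, and the share of all genes at that cutoff was not taken. With DESeq2, 1 was higher and 0 lower. The mitochondrial thioredoxin TXN2 showed a log2 change of 0.32 (adjusted P = 0.0399), which passed in 4 of 12 alternatives and, among the fits without 1 library, only without abemaciclib replicate 3; its log2 fold change was 0.25 to 0.37 in the other 5. TXNRD2, the mitochondrial reductase, had 15.1, 11.3 and 21.5 CPM with DMSO and 20.9, 10.4 and 14.6 CPM with abemaciclib (log2 fold change −0.07, 95% interval −0.66 to 0.51, adjusted P = 0.887). The related reductase TXNRD3 was higher in every abemaciclib library, at 7.26 to 12.3 CPM against 3.77 to 5.35 CPM, just short of the threshold (log2 fold change 1.02, adjusted P = 0.0514), and it passed with at least 10 counts in every library (1.01) and without abemaciclib replicate 1 (1.17). The difference between TXNRD1 and its relatives was not tested. TXNIP, the inhibitor of thioredoxin, showed a log2 change of 0.22 (adjusted P = 0.0764) that passed with DESeq2 (adjusted P = 0.0458) and without DMSO replicate 3 (0.30) or abemaciclib replicate 3 (0.23).

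Selenoproteins carry selenocysteine at the active site, as TXNRD1 and GPX4 do, and need a dedicated machinery to read it. Of 21 genes of this machinery and of other selenoproteins, 17 were tested, with 6 higher (35.3%, against 12.5% of all genes), 0 lower and a median of 0.31. By edgeR's unadjusted P at 0.05, 8 were higher and 4 lower, and with DESeq2 6 were higher and 0 lower. The 6 called higher by edgeR were all selenoproteins. SELENOW had 73.1, 74.3 and 60.9 CPM with DMSO and 156.1, 127.6 and 132.1 CPM with abemaciclib (log2 fold change 1.00, adjusted P = 4.54e-07). SELENOM, a resident of the endoplasmic reticulum, rose from 47.9 ± 6.78 to 100.9 ± 15.6 CPM (log2 fold change 1.07, adjusted P = 1.41e-06). SELENOP, a secreted selenium carrier, rose by 1.02 (adjusted P = 0.00039), with a gene on the opposite strand over its 3′ end. SELENOO, SELENOT and SELENOK rose by 0.92, 0.58 and 0.56, and their calls were lost, respectively, without DMSO replicate 3 (0.63) or abemaciclib replicate 1 (0.77), without abemaciclib replicate 3 (0.37), and without DMSO replicate 2 (0.43).
The 4 genes with an unadjusted P under 0.05 in the lower direction were all of the machinery: SEPHS1 (log2 fold change −0.44, adjusted P = 0.0503), SEPSECS (−1.15, adjusted P = 0.0725), SECISBP2 (−0.34, adjusted P = 0.122) and EEFSEC (−0.70, adjusted P = 0.0944). SEPHS1 passed without DMSO replicate 1 (−0.53) or abemaciclib replicate 2 (−0.54), and EEFSEC without DMSO replicate 1 (−0.94) or abemaciclib replicate 1 (−1.08). These genes were singled out after their values were seen. The share of all genes at an unadjusted P under 0.05 was not taken, so the 8 higher and these 4 cannot be read against a background.

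**Figure D3:**
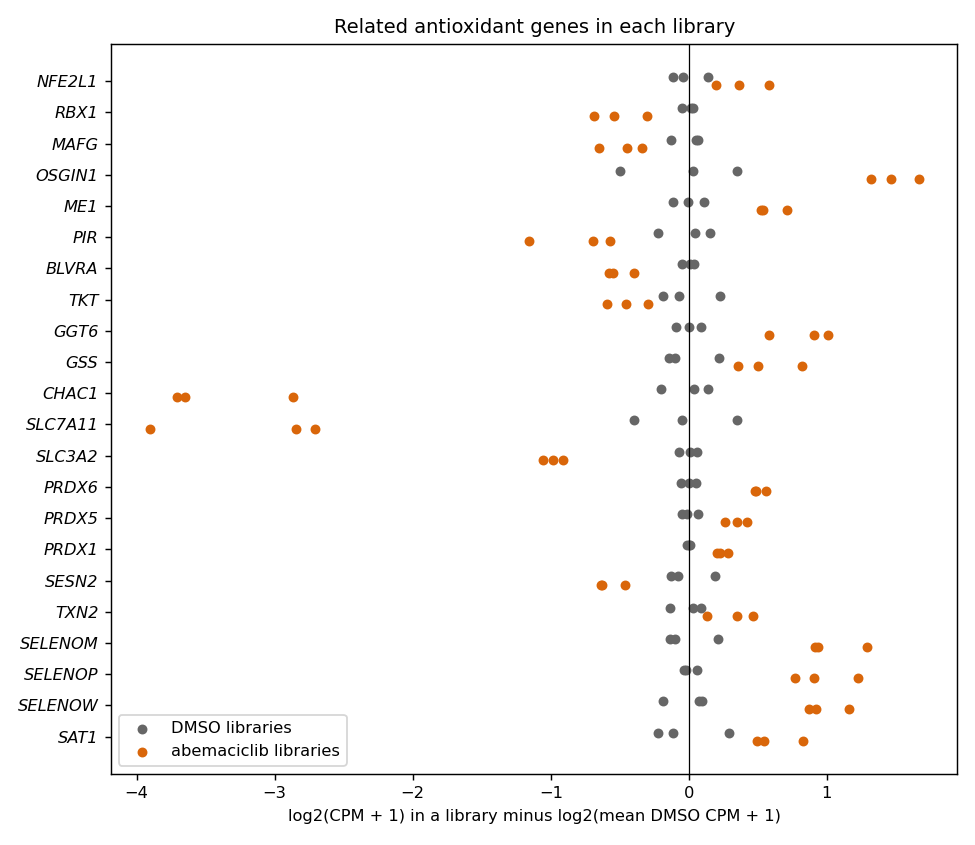
Level in each library of the related genes named here by the fixed rule, as log2(CPM + 1) minus log2 of the mean DMSO CPM + 1; grey dots are the 3 DMSO and orange dots the 3 abemaciclib libraries. The rule required groups that do not overlap, and the spread within a group is widest for SLC7A11 and CHAC1, which were near 1 CPM with abemaciclib.

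Of 12 further genes of ferroptosis, 9 were tested, with 1 higher (11.1%), 0 lower and a median of −0.10. By edgeR's unadjusted P at 0.05, 2 were higher and 2 lower, and with DESeq2 1 was higher and 0 lower. SAT1, a polyamine-degrading enzyme, rose from 46.7 ± 9.39 to 72.9 ± 9.51 CPM (log2 fold change 0.64, adjusted P = 0.0027). The 2 with an unadjusted P under 0.05 in the lower direction were ACSL4, which loads polyunsaturated fatty acids into lipids (log2 fold change −1.03, adjusted P = 0.0702), and AIFM2, which encodes the GPX4-independent suppressor FSP1 (−1.13, adjusted P = 0.112). ACSL4 had 7.25, 8.02 and 7.57 CPM with DMSO and 3.63, 3.45 and 4.05 CPM with abemaciclib, groups that did not overlap, and it passed where at least 10 counts in every library were required (adjusted P = 0.0233). Here too the counts by the unadjusted P had no share of all genes beside them.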

How the data were processed

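The members and the related lists were chosen with earlier results of these data known. Per the labels and methods, the authors trimmed single-end 3′ mRNA reads (BBDuk), mapped them (STAR 2.7.5b, hg38) and counted them per gene with featureCounts 2.0.1 on a GENCODE annotation; the strand setting is not given in the sources used here. The deposited values are these raw counts. Symbols were matched by Ensembl identifier for 60401 of 60656 genes, with SOD2 unmatched, and positions and overlaps come from GENCODE v44 (GRCh38), a later release than the one counted on. Promoter sequences are from RefSeq.

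Abemaciclib was compared with DMSO in all 6 libraries, without covariates, with edgeR 4.0.16 run under R 4.3.3 (TMM after filterByExpr, glmQLFit, glmQLFTest, Benjamini–Hochberg over 10863 genes, threshold 0.05). Standard errors are the log2 fold change over the square root of F, and 95% intervals use the fit's degrees of freedom. The biological coefficient of variation was 13.2%. Per the methods, the replicates of a group were independent cultures. Named genes were the members and, per list, up to 3 rises and 3 falls past the threshold with at least 5 CPM and groups that do not overlap; others were named after their values were seen. There were 12 alternatives, DESeq2 1.42.0 among them. A gene that the rule named is counted in its list but not reported here.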

Additional observations from a re-analysis of the deposited data

How the results depend on the processing

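The counts of 1354 genes higher and 1442 lower were 1069 and 1166 with DESeq2 and 981 to 1412 and 1132 to 1529 with each library left out. Samples of the same replicate number did not deviate together (correlations −0.043, 0.0070 and −0.089). This cannot settle whether their cultures were set up as pairs, which the labels do not state. With a replicate block 1139 genes were higher and 1280 lower. Of 228 counts and medians under an alternative, 187 stayed within 1.5 times the main count or within 1 SD, and 41 moved; the causes were not tested. The median over the members was −0.18 with at least 10 counts in every library, which leaves out HMOX1, and −0.23 to −0.12 with each library left out. Members called higher were 0 to 1, and those called lower 2 to 3, over the fits without 1 library.

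For partners and regulators, higher genes numbered 0 with DESeq2, total counts only or the replicate block and 0 to 1 without 1 library, and lower genes 1 to 2. For other targets, lower genes numbered 2 to 4 without 1 library. For glutathione genes, higher ones numbered 1 with DESeq2, 4 with no filter and 1 to 3 without 1 library, and lower ones 3 with at least 10 counts in every library, which leaves out CHAC1 and SLC7A11. For peroxide removal, higher genes numbered 1 to 4 without 1 library, and lower ones 1 with DESeq2 or at least 10 counts in every library and 1 to 2 without 1 library. For the thioredoxin system, higher genes numbered 0 with total counts only or the replicate block, 2 with at least 10 counts in every library and 0 to 2 without 1 library. For selenoprotein genes, lower ones numbered 1 with total counts only or at least 10 counts in every library and 0 to 2 without 1 library, and for ferroptosis genes 1 with at least 10 counts in every library.

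For single genes, 4 of 381 values changed direction, in members that were not called: GCLM (0.052 without abemaciclib replicate 3), HMOX1 (−0.13 without DMSO replicate 1), and GPX4 (−0.018) and TXN (0.0058) without abemaciclib replicate 1. Over all fits without 1 library GCLM ranged from −0.30 to 0.052, HMOX1 from −0.13 to 0.56, GPX4 from −0.018 to 0.27 and TXN from −0.20 to 0.0058. A further 38 lost their call and 2 gained one. The replicate block ended the calls of NFE2L1, PRDX1 and TXN2 among the genes the rule named, and of AKR1B1. Depth limits GCLC and HMOX1 most, and SRXN1 had no counts.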
